A study of Mus musculus with 4 samples.

Results

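The thioredoxin, peroxiredoxin and glutathione families were examined in CD4 single-positive thymocytes, with catalase, both intracellular superoxide dismutases and glutathione synthetase. Members were chosen by gene symbol: every gene with a probe set annotated to it alone whose symbol begins with Txn, Prdx, Gpx, Gst, Mgst or Glrx, plus Cat, Sod1, Sod2 and Gss. The thioredoxin reductase gene Txnrd1 and the thioredoxin inhibitor gene Txnip were left out of the membership and are described beside it. This gave 59 genes of 18193, measured by 108 of 34945 single-gene probe sets. The choice went by name, so it also brought in genes of other function, such as the spliceosome components Txnl4a and Txnl4b. Prdx1 was not a member, since its 5 probe sets are annotated to another gene as well, and Glrx3 was read from a single probe set because 4 others are shared in the same way.

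The study compared 2 groups of B6 mice with 2 arrays each. All mice carried floxed Cul3 on both alleles (Cul3fl/fl). The LM mice lacked the CD4-Cre transgene (CD4Cre-Cul3fl/fl) and the KO mice had it (CD4 Cre+Cul3fl/fl). Cre in such mice is driven by Cd4 regulatory sequence, which is active from the double-positive thymocyte stage, so deletion is limited to cells that pass through that stage. No group carried Cre without floxed Cul3, so effects of Cre and of Cul3 loss cannot be told apart. Per the labels, CD4 single-positive cells were sorted after exclusion of cells with CD25, the gamma delta receptor or CD1d-PBS57 tetramer staining, and their total RNA was hybridised. The labels give no age and do not say that replicates came from separate animals. P-values therefore rest on a sample-to-sample spread that may be technical only.

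These families make up much of the cell's thiol-based defence against peroxides. Thioredoxin reductases take electrons from NADPH and pass them to thioredoxins, which reduce disulfides in target proteins, among them the peroxiredoxins that break down hydrogen peroxide. In the parallel glutathione branch, glutathione peroxidases use glutathione to reduce peroxides, glutaredoxins use it to reduce protein disulfides, and glutathione S-transferases couple it to electrophiles. Several reductases and peroxidases of these families are selenoproteins. Cul3 with its adaptor Keap1 marks the transcription factor NRF2 for degradation, and NRF2 drives many thioredoxin and glutathione genes through antioxidant response elements. Thymocytes use the thioredoxin and glutathione branches to support DNA synthesis and growth.

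Markers of the labelled cell type were present. All 11 measured markers of CD4 single-positive T cells, including Cd3e, Cd4, Il7r and Ccr7, were above background on all 4 arrays. Background was the 95th percentile of the signals of 78 olfactory and vomeronasal receptor probe sets on each array, 83.4 to 109 in deposited signal units. Many markers of other lineages were dim: 6 of 12 myeloid and dendritic markers, 4 of 6 erythroid markers, 3 of 5 B cell markers and 6 of 11 stromal markers were below background on every array. Above it on all 4 arrays were 1 myeloid marker (Tyrobp), 1 erythroid marker (Tfrc), 2 stromal markers (Pecam1 and Epcam) and no B cell marker. Of 4 measured markers of NKT and gamma delta T cells, 3 were above background on all arrays, namely Cd1d1, Sox13 and Zbtb16. The alpha globin gene Hba-a1 read between 3.0 and 14.9. Double-positive and CD8 markers were above background on all arrays for 5 of 7 genes, among them Cd8a, and their summed signal was 3528 and 4222 on the LM arrays against 4065 and 4206 on the KO arrays. Correlations between arrays over the 11236 genes tested ran from 0.961 to 0.974. Cul3, the targeted gene, read 5333 and 5724 in LM and 5380 and 5577 in KO cells by its brightest probe set, which overlapped. It differed by -0.01 ± 0.09 (log2 difference KO minus LM ± SE, limma adjusted p = 0.994). The other 4 probe sets of Cul3 differed by -0.15 to 0.31. The positions of the Cul3 probe sets relative to the floxed part were not used here, so the genotype rests on the labels.

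Of the 59 members, 44 were above background on at least 2 arrays and entered the test, 40 of them on all 4 arrays. The other 15 were too dim to test, 13 of them below background on every array. The dim ones were the glutathione peroxidases Gpx5, Gpx6, Gpx7 and Gpx8, the transferases Gsta2, Gstm5, Gstm6, Gsto2, Gstt1, Gstt3 and Gstt4, the microsomal transferase Mgst1, the thioredoxin-domain genes Txndc2 and Txndc8, and the reductase Txnrd3. Txndc2, Txndc8 and Gpx5 are known for expression in the male reproductive tract.

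None of the 44 tested members passed the threshold of an adjusted p of 0.05 in limma, where 31 of all 11236 genes did (0.276%). The 3 members with an unadjusted p below 0.05 in limma were cytosolic thioredoxin Txn1, the omega class transferase Gsto1 and the copper-zinc superoxide dismutase Sod1. The set depended on the settings: over 14 alternatives fitted by gene, Txn1 had such a p in 12, Gsto1 in 11 and Sod1 in only 2, both of them other pseudocounts, while Gstm1 had one in 5. At the settings used, the 3 were 6.82% of the tested members, against 8.39% of all genes tested, so the share was near the background. All 3 had higher signals on the KO arrays, a direction that 4.23% of all genes took at that threshold, while 4.17% took the other. The groups did not overlap for 16 of the 44 members (36.4%), against 37.4% of all genes. Of these 16, KO was higher for 12 (27.3% of the 44, against 19.1% of all genes) and lower for 4 (9.09% of the 44, against 18.3% of all genes). One of the 12, Gstm7, entered the test only through the KO arrays, and without genes of that kind the count was 15 of 43 members (34.9%), against 36.1% of all genes. The median member difference was 0.055, against 0.0016 over all genes tested, with 26 members above 0 (59.1%, against 50.3% of all genes) and 18 below. The signs were even, 22 and 22, with median centring in place of quantile normalization. That setting put the median of all genes tested at -0.046 and the member median at 0.0025. The member median was 0.135 without KO replicate 2 and -0.017 without KO replicate 1.

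Markers of other cell states differed between the same arrays. Of 9 measured markers of cycling cells, 9 had a lower mean on the KO arrays. At the limma threshold 3 fell, the proliferation antigen gene Mki67 (-0.86 ± 0.10, log2 ± SE), the topoisomerase gene Top2a (-1.44 ± 0.18) and the cyclin gene Ccna2 (-1.11 ± 0.18). The groups overlapped for Tyms (292 and 200 in LM, 175 and 231 in KO cells) and for no other of the 9. The summed signal of the 9 was 21513 and 23053 in LM against 14322 and 14083 in KO cells. Of 6 markers of regulatory T cells 6 had a higher KO mean, none past the threshold. Their summed signals were 6287 and 6553 in LM samples and 9012 and 7919 in KO samples. The groups overlapped for Foxp3 (499 and 289 in LM, 794 and 363 in KO samples), Ctla4 and Tnfrsf18, and not for Il2ra, Ikzf2 and Nrp1. Il2ra, which encodes the CD25 used to exclude cells in the sort, was at 611 and 540 in LM samples and 963 and 949 in KO samples. The part of either in the differences of Txn1, Gsto1, Sod1 and the other members was not tested. In RNA from sorted populations, fewer cells of a type and less RNA per cell cannot be told apart.

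**Figure D1:**
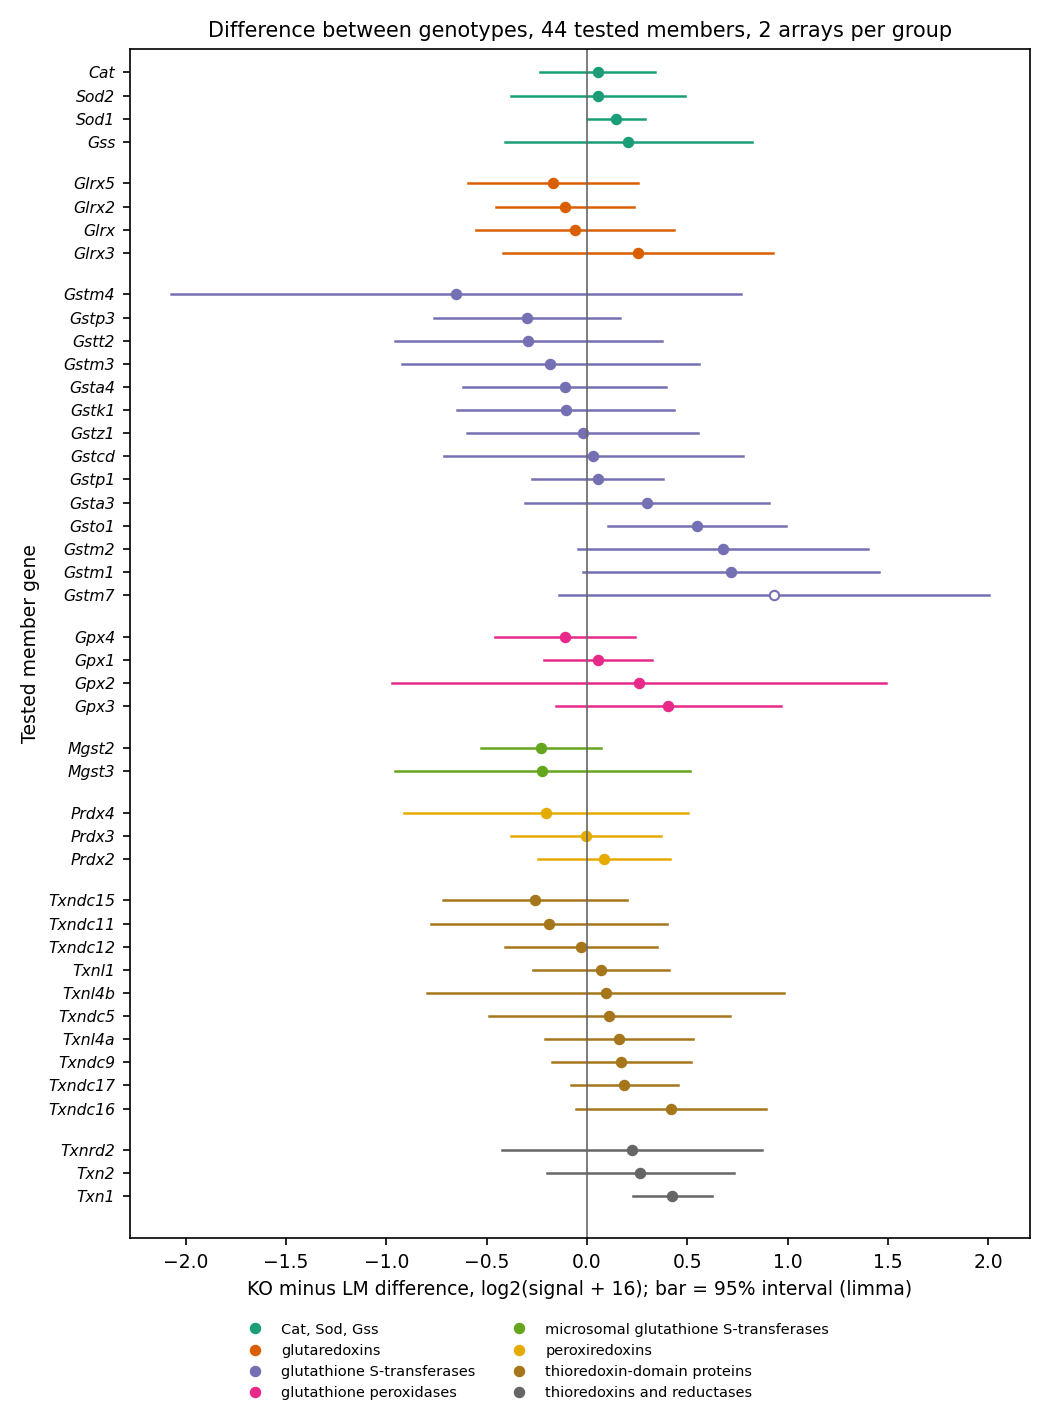
Difference between genotypes for each of the 44 tested members, by family. Points are the log2 difference KO minus LM and bars the 95% interval from limma, with 2 arrays per group. The intervals of Txn1, Gsto1 and Sod1 lie above 0, and the others cross it. The open point is Gstm7, whose LM signals were below background, so that its difference is not a measured size.

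**Figure D2:**
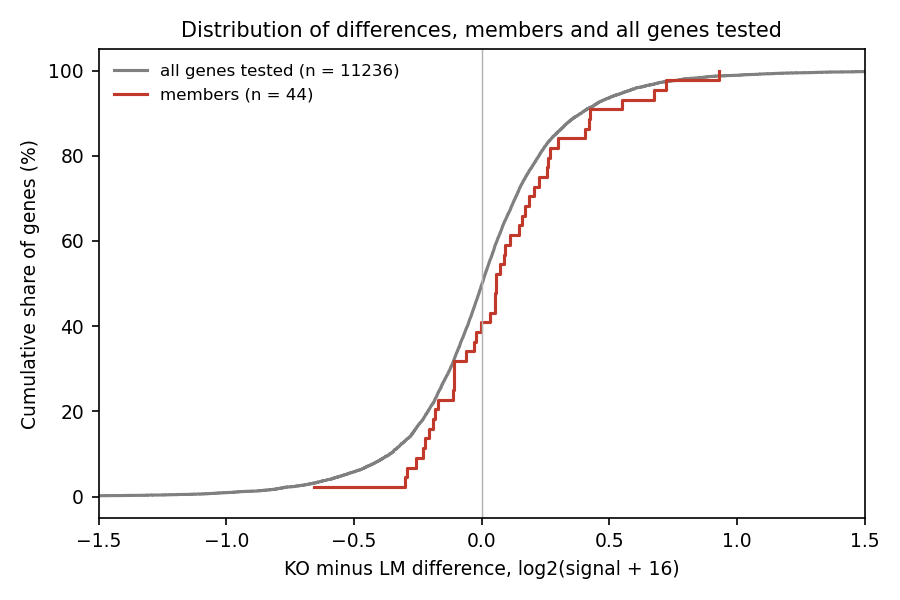
Cumulative share of genes by log2 difference KO minus LM, for the 44 tested members and for all 11236 genes tested (the axis is limited to 1.5 either way). The member curve lies to the right of the other through most of its course, with medians of 0.055 and 0.0016.

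The promoters of the 3 members with the smallest p at the settings used are shown, since NRF2 acts through the antioxidant response element and Cul3 acts on NRF2. Each sequence is the 250 bases before the RefSeq start in build GRCm38.p6, read 5′ to 3′ on the strand of the gene. Capitals mark the core of the antioxidant response element, TGACNNNGC, searched on both strands. The core may overlap an AP-1 site, TGACTCA. The windows are chr4:57956412-57956661 on the minus strand for Txn1, chr19:47854723-47854972 on the plus strand for Gsto1 and chr16:90220512-90220761 on the plus strand for Sod1.
Txn1: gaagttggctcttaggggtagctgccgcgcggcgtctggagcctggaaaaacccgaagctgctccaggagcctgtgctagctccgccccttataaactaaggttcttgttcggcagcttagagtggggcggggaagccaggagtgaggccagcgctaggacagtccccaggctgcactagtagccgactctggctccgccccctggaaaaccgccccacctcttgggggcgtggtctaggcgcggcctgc
Gsto1: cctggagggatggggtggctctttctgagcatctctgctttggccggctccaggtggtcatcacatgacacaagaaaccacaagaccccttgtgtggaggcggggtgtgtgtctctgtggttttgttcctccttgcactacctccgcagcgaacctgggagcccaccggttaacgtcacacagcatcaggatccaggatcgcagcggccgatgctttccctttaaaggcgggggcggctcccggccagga
Sod1: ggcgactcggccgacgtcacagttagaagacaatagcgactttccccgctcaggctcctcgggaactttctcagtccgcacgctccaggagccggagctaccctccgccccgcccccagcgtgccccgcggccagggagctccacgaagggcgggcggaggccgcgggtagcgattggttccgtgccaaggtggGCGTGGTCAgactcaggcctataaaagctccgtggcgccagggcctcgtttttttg
The core occurred once in the Sod1 window, on the opposite strand as GCGTGGTCA, with its first printed base 56 bases before the start. It was not in the Txn1 or Gsto1 window. Only these 250 bases were searched, so a core elsewhere in a gene would not be seen. Among members, 55 of 59 matched the promoter table by symbol, with 76 windows. Of these windows 8 held the core (10.5%), against 3338 of 32851 windows of that length over all genes (10.2%). The member windows with the core belonged to 8 genes, namely Gsta3, Gstm5, Gstm7, Mgst1, Sod1, Txndc11, Txndc2 and Txndc5. TGACTCA occurred in 5 member windows (6.58%), those of Glrx, Gstm5, Gstp1 and Mgst2, against 4.46% of all windows.

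Txn1 was the member with the smallest p. Thioredoxin is the small disulfide reductase of the cytosol and nucleus. Its brighter probe set read 4946 and 5239 in LM against 7063 and 6624 in KO cells. Both KO arrays were above both LM arrays. After log2 and quantile normalization Txn1 was at 12.32 ± 0.003 on the LM arrays and 12.74 ± 0.03 on the KO arrays (mean ± SD, n = 2 each). These SDs are of normalized values and not of the deposited signals. The difference was 0.43 ± 0.09 (SE), or 1.34-fold, with a 95% interval of 0.23 to 0.62. In limma its adjusted p was 0.110, at rank 54 of 11236 genes by p. Without normalization between arrays the difference was 0.43 and the adjusted p in limma 0.174. Adjusted p-values under the alternatives ran from 0.0568 without LM replicate 2 to 0.927 with the mean of both probe sets, where the difference was 0.13. The other Txn1 probe set was far dimmer, with signals of 114 and 109 in LM samples and 158 and 65.0 in KO samples, and was above background on 3 arrays.

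The mitochondrial thioredoxin system held 2 tested members. Mitochondrial thioredoxin Txn2 read 771 and 560 on the LM arrays against 716 and 872 on the KO arrays, and the groups overlapped. Its difference was 0.27 ± 0.21 (log2 ± SE, limma adjusted p = 0.831), or 0.062 without LM replicate 2. The other Txn2 probe sets differed by 0.58 and 0.42, so 3 of 3 lay above 0. The mitochondrial reductase Txnrd2 read 210 and 164 in LM against 199 and 251 in KO cells, which also overlapped. It differed by 0.22 ± 0.30 (log2 ± SE, limma adjusted p = 0.910), and 2 of its 4 probe sets lay above 0.

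Txnrd3, the reductase that also carries a glutaredoxin domain, was not tested. Its brightest probe set read 17.6 and 17.3 in LM samples and 92.8 and 119 in KO samples. Only KO replicate 2 was above background. The KO mean was 1.03-fold above the background level of the LM arrays. It takes in KO replicate 1, which was below its own background, so the size of the difference was not measured. A further probe set had signals of 10.7 and 9.1 in LM cells against 55.3 and 90.0 in KO cells, while the remaining one read 54.1, 34.7, 7.4 and 74.0 in the same order and was below background throughout. Without the filter on dim genes the limma adjusted p of Txnrd3 was 0.470.

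Txnrd1, the cytosolic reductase that recharges Txn1, passed the threshold and is no member. It read 1024 and 1108 in LM against 2876 and 2028 in KO cells. Txnrd1 rose by 1.18 ± 0.18 (log2 ± SE, limma adjusted p = 0.0203), a 2.26-fold difference, and all 3 of its probe sets lay higher (1.18, 1.19 and 0.88). Txnip, which binds thioredoxin and blocks it, read 3010 and 4361 in LM samples and 2362 and 2759 in KO samples. Both KO arrays lay below both LM arrays, with a difference of -0.48 ± 0.16 (log2 ± SE, limma adjusted p = 0.40). It was -0.24 without LM replicate 2 and passed the threshold without LM replicate 1 (-0.71, adjusted p = 0.00865 in limma). The second Txnip probe set differed by -0.32. The call of Txnrd1 ended without KO replicate 1 (0.93), without the filter on dim genes and without the intensity trend in eBayes. Its rise was 1.42 without KO replicate 2.

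**Figure D3:**
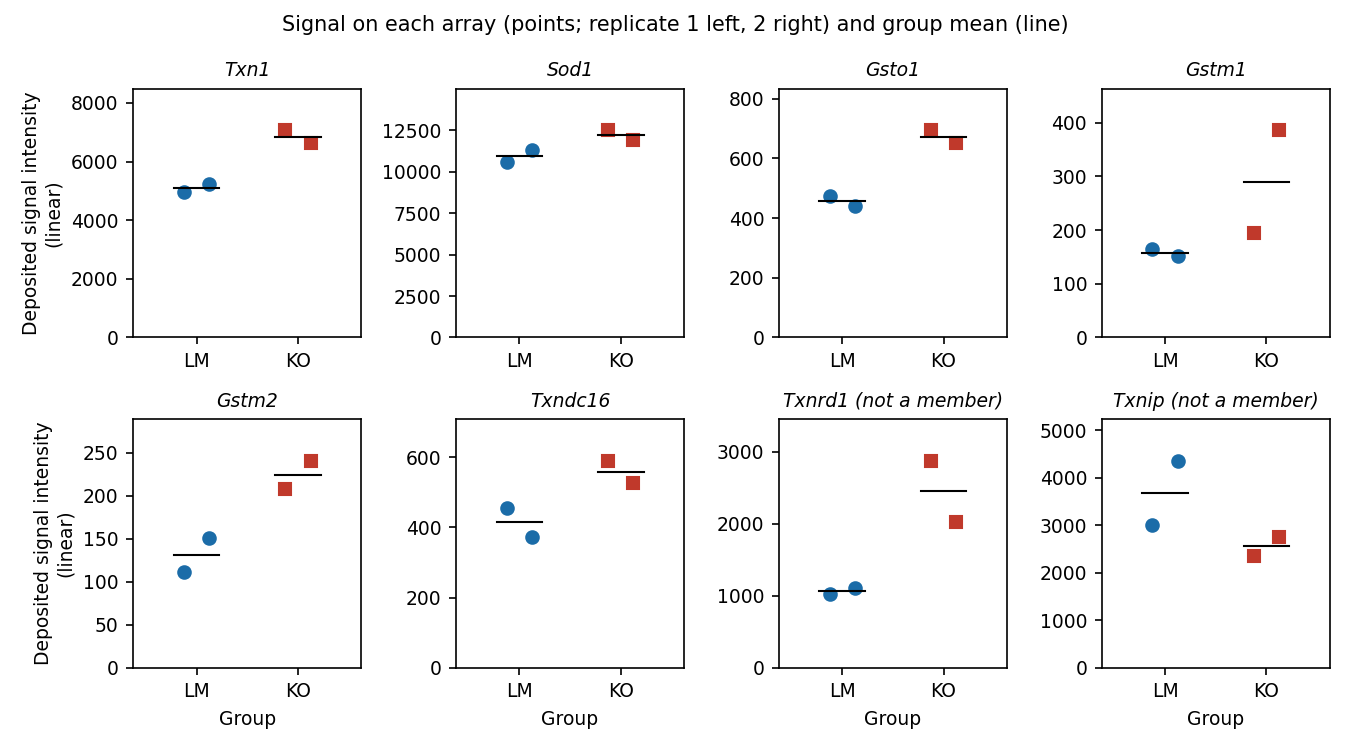
Deposited linear signal on each array for 6 members and for Txnrd1 and Txnip, with each group's mean as a line. Each panel has its own axis from 0. The KO points lie above the LM points for all genes shown except Txnip, where they lie below, and KO replicate 2 stands apart for Gstm1 (386 against 195 on KO replicate 1).

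The thioredoxin-domain proteins held 10 tested members, 7 with a difference above 0 and 3 below. Txndc16, a protein with thioredoxin-like domains, read 456 and 373 on the LM arrays against 590 and 527 on the KO arrays. The groups did not overlap, and the difference was 0.42 ± 0.22 (log2 ± SE, limma adjusted p = 0.673). Txndc17, a small cytosolic thioredoxin-related protein, read 3530 and 3326 in LM against 3656 and 4134 in KO cells by its brightest probe set. That set differed by 0.19 ± 0.12 (log2 ± SE, limma adjusted p = 0.771), while the other 3 differed by -0.05, -0.05 and -0.40. Txnl1, a thioredoxin-like protein associated with the proteasome, had 4 probe sets above background and all 4 lay above 0 (0.07, 0.31, 0.41 and 0.21). Of the others, the difference was -0.26 for Txndc15, -0.19 for Txndc11, -0.03 for Txndc12, 0.09 for Txnl4b, 0.11 for Txndc5, 0.16 for Txnl4a and 0.17 for Txndc9, none past the limma threshold.

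All 3 peroxiredoxins among the members had groups that overlapped. Prdx1, Prdx5 and Prdx6 were not among the members, so the family was read only in part. Cytosolic Prdx2 read 3025 and 3379 in LM samples and 3989 and 2836 in KO samples, so the KO arrays held both the highest and the lowest value. It differed by 0.09 ± 0.15 (log2 ± SE, limma adjusted p = 0.942). Mitochondrial Prdx3 read 1084 and 1201 on the LM arrays against 1169 and 1087 on the KO arrays. Its difference of -0.003 ± 0.17 (log2 ± SE) had a 95% interval of -0.38 to 0.37. Prdx4, the peroxiredoxin of the endoplasmic reticulum, read 422 and 312 in LM against 455 and 221 in KO cells. It differed by -0.21 ± 0.32 (log2 ± SE, limma adjusted p = 0.928), and leaving out KO replicate 1 gave -0.73, leaving out KO replicate 2 0.32. Its other 3 probe sets differed by -0.39, -0.18 and -0.76, so 4 of 4 lay below 0.

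Superoxide dismutases turn superoxide into hydrogen peroxide, and catalase breaks hydrogen peroxide down. Sod1 read 10597 and 11292 in LM samples and 12488 and 11930 in KO samples. The groups did not overlap, but the size was small: 0.15 ± 0.07 (log2 ± SE, limma adjusted p = 0.585), or 1.11-fold, with a 95% interval of 0.002 to 0.29. A second bright Sod1 probe set differed by 0.14, while 2 dimmer ones differed by -0.35 and 0.049. The mean over all 5 probe sets was -0.10. It takes in 1 probe set below background on every array, which differed by -0.48. The mitochondrial manganese enzyme Sod2 read 1321 and 1249 on the LM arrays against 1633 and 1081 on the KO arrays. The KO arrays lay on both sides of the LM arrays, with a difference of 0.05 ± 0.20 (log2 ± SE). Cat read 3753 and 3127 in LM against 3586 and 3451 in KO cells, with a difference of 0.05 ± 0.13 (log2 ± SE). Both changed sign under median centring, to -0.0010 for Sod2 and -0.012 for Cat, where the median of all genes tested was -0.046.

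In the glutathione branch, 4 glutathione peroxidases were tested. Gpx1, the cytosolic and mitochondrial peroxidase, read 2763 and 3053 in LM samples and 3041 and 2908 in KO samples. It differed by 0.06 ± 0.12 (log2 ± SE, 95% interval -0.21 to 0.32), or by -0.016 with median centring. Gpx4, which reduces lipid peroxides in membranes, read 1747 and 2070 on the LM arrays against 1941 and 1596 on the KO arrays, a difference of -0.11 ± 0.16 (log2 ± SE). The secreted enzyme Gpx3 had the only non-overlapping groups of the 4, at 267 and 229 in LM against 296 and 377 in KO cells. Its difference was 0.41 ± 0.26 (log2 ± SE, limma adjusted p = 0.761). Gpx2 was above background on 2 arrays and differed by 0.26 ± 0.56.

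Glutaredoxins and glutathione synthetase showed no separation of the groups. Cytosolic Glrx read 526 and 415 in LM samples and 488 and 411 in KO samples, a difference of -0.06 ± 0.23 (log2 ± SE), while its other probe set differed by 0.55. Glrx2, in mitochondria and nucleus, differed by -0.11 ± 0.16, and Glrx5, which acts in mitochondrial iron-sulfur cluster assembly, by -0.17 ± 0.19. Glrx3, a cytosolic iron-sulfur carrier, differed by 0.25 ± 0.31, or by -0.055 without LM replicate 2. Gss, which makes glutathione from gamma-glutamylcysteine and glycine, read 223 and 259 on the LM arrays against 327 and 245 on the KO arrays. It differed by 0.21 ± 0.28 (log2 ± SE, limma adjusted p = 0.913), and its second probe set by -0.23.

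The glutathione S-transferases held 14 tested members, 7 with a difference above 0 and 7 below. Of the 43 members above background on at least 1 array of each group, 3 differed by 1.5-fold or more (6.98%, against 7.37% of all genes so measured), the mu class transferases Gstm1, Gstm2 and Gstm4. Gsto1, the omega class transferase that reduces dehydroascorbate, read 473 and 440 in LM against 694 and 652 in KO cells. Both KO arrays lay above both LM arrays, with a difference of 0.55 ± 0.20 (log2 ± SE, limma adjusted p = 0.446), or 1.46-fold. Its second probe set read 114 and 121 in LM samples and 218 and 213 in KO samples and differed by 0.75. Gsto1 differed by 0.50 to 0.60 when each array was left out in turn.

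The mu class genes stand side by side on chromosome 3, with only pseudogenes between them in the RefSeq gene table. Gstm1 read 165 and 152 on the LM arrays against 195 and 386 on the KO arrays. The difference of 0.72 ± 0.34 (log2 ± SE, limma adjusted p = 0.613) was 0.27 without KO replicate 2 and 1.17 without KO replicate 1, and the second probe set above background differed by 0.42. Gstm2 read 112 and 152 in LM against 208 and 241 in KO cells. It differed by 0.68 ± 0.33 (log2 ± SE, limma adjusted p = 0.640), or by 0.42 without LM replicate 1. Gstm7 signals of 47.0 and 63.0 in LM cells were under background, while those of 166 and 94.5 in KO cells were over it. It passed the filter only through the KO arrays, where it was high, so it had to differ and its fit supports no more than a bound of at least 1.2-fold higher in KO (limma adjusted p = 0.685). Of the other mu class genes tested, Gstm3 differed by -0.18 ± 0.34. Gstm4 read 69.1 and 92.9 in LM against 101 and 19.3 in KO cells and was above background on 2 arrays. Its difference of -0.66 ± 0.65 (log2 ± SE, limma adjusted p = 0.871) rested on KO replicate 2, without which it was 0.25, while without KO replicate 1 it was -1.56. The mu class genes are close paralogs and the brightest Gstm1 and Gstm3 probe sets carry suffixes for probes that match several transcripts, so assignment to single genes is uncertain. Such suffixes are also on the brightest probe sets of Gsto1, Sod1, Txn2, Gpx4, Gss and Txndc17. The second Gsto1 probe set (0.75) and the second bright Sod1 probe set (0.14) have none.

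Other transferases lay closer to 0 or lower on the KO arrays. The pi class gene Gstp1, a cytosolic transferase expressed in many cell types, read 2282 and 2462 in LM samples and 2799 and 2169 in KO samples, a difference of 0.05 ± 0.15 (log2 ± SE). Gstp3 read 526 and 501 on the LM arrays against 414 and 413 on the KO arrays, a difference of -0.30 ± 0.21 (log2 ± SE, limma adjusted p = 0.80). The alpha class gene Gsta3 read 265 and 180 in LM against 264 and 292 in KO cells by its brighter probe set, which overlapped as deposited but not after normalization. It differed by 0.30 ± 0.28 (log2 ± SE), and its second probe set by -0.23. Mgst2, a membrane transferase that can make leukotriene C4, read 2227 and 2277 in LM samples and 1967 and 1881 in KO samples. Its difference was -0.23 ± 0.14 (log2 ± SE, limma adjusted p = 0.733), with no overlap. Mgst3 differed by -0.22 ± 0.34.

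Probe sets of one gene often disagreed. Of the 44 tested members, 21 had more than 1 probe set above background on at least 2 arrays. For 6 of these 21 all such probe sets had the same sign, above 0 for Cat, Gstm1, Gsto1, Txnl1 and Txn2 and below 0 for Prdx4. For the other 15 the signs differed. The other 23 members had 1 such probe set, so no second reading was available for Txndc16, Gpx3, Gstm2 or Mgst2.

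**Figure D4:**
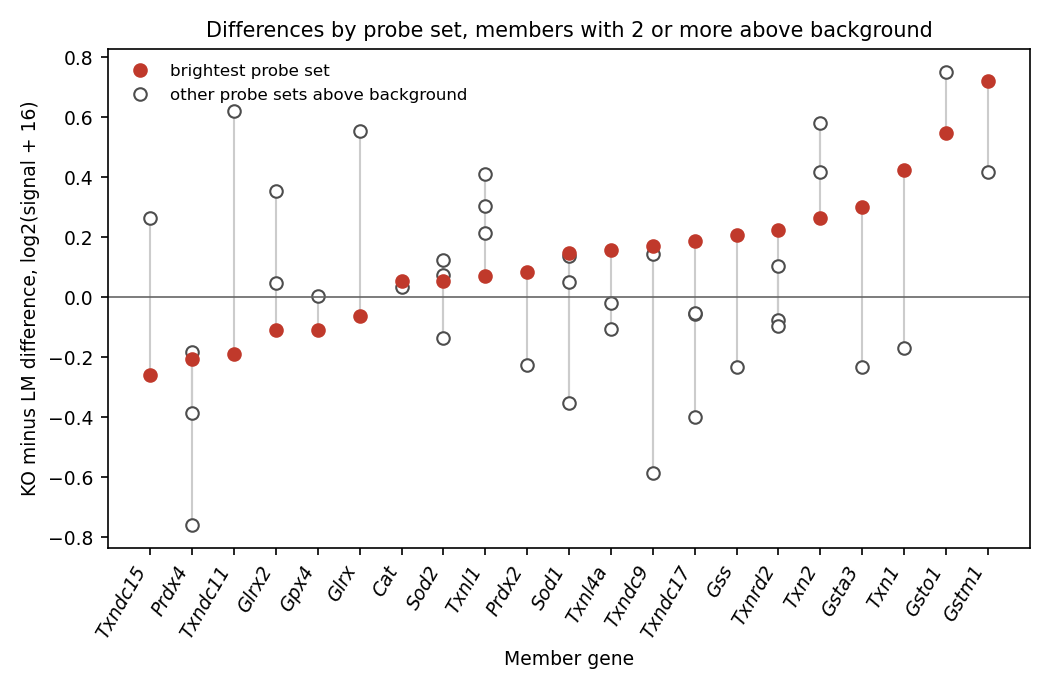
Log2 difference KO minus LM of every probe set above background on at least 2 arrays, for the 21 tested members with more than 1. Filled points are the brightest probe set, which represents the gene in the test, and open points the others. All points lie above 0 for Cat, Txnl1, Txn2, Gsto1 and Gstm1, and all below 0 for Prdx4.

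The precision differed between members. For 39 of the 44 tested members the 95% interval lay within a 2-fold change in either direction, and for 16 it lay within 1.5-fold. These intervals rest on the same spread between arrays as the p-values, which may be technical only. They are for the brightest probe set and do not cover the other probe sets of a gene. A larger change between animals is therefore not excluded. The 5 members whose interval reached 2-fold were Gstm1, Gstm2, Gstm4, Gpx2 and Gstm7, the last fitted to LM signals below background. A member that missed the threshold is therefore not shown to be equal between the groups.

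A further list of 49 genes held others of both branches and genes around them, such as Cul3, Keap1, Nfe2l2, Hmox1 and Tkt. Of these 49, 36 were tested. At the limma threshold 1 rose and none fell, where 0.276% of all genes were called. The median difference of the 36 was 0.036 (19 above 0 and 17 below). Txnrd1 was the one that rose. Nnt, the mitochondrial transhydrogenase that makes NADPH, read 7113 and 8135 on the LM arrays against 5957 and 5466 on the KO arrays, a difference of -0.42 ± 0.09 (log2 ± SE, limma adjusted p = 0.112). It passed the threshold without LM replicate 1 (-0.47, adjusted p = 0.0263 in limma). Gsr, which reduces oxidised glutathione, differed by 0.53 ± 0.14 (log2 ± SE, limma adjusted p = 0.238). Of the ligase subunits that act before Gss, Gclm differed by 0.62 ± 0.25 and Gclc by 0.41 ± 0.19, neither past the limma threshold. The sulfiredoxin gene Srxn1, whose product repairs overoxidised peroxiredoxins, was above background on 1 array only and was not tested. None of 8 tested genes of selenoprotein synthesis passed, and their median was -0.0009.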

How the data were processed

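RNA from sorted thymocytes was amplified with a WT-Ovation Pico kit before biotin labelling, per the labels' protocols. For each of 4 arrays the authors deposited a linear intensity per probe set. Scaling had been applied, as every array had a mean of 500.0 after trimming of 2% at both ends. Which program summarised the probes is not given in the sources used here. The 64 control probe sets of 45101 were dropped. Of the others, the platform annotation named 1 gene for 34945, more than 1 for 932 and no gene for 9160. All 59 members matched the RefSeq gene table by symbol.

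The log2 of intensity plus 16 was quantile normalized. The added 16 shrinks differences of dim genes. A gene was read from its brightest probe set and tested if it exceeded background on at least 2 arrays, which left 11236 genes. The model, fitted in limma 3.58.1 (R 4.3.3) with lmFit and trended eBayes, held genotype alone and had 2 residual and 9.95 prior degrees of freedom. Two-sided p-values were corrected by the Benjamini-Hochberg method across the 11236 genes. With 2 arrays against 2 an exact permutation test cannot go below p = 0.333. The number of arrays limits precision, and the median standard error was 0.22 on the log2 scale. In 20 simulated sets of 11236 genes with 200 altered, 45% of 2-fold and 87.4% of 4-fold changes were found, with 5.09% false calls. The shares found depend on the number of genes altered. In the data 31 genes were called, so these shares are not the power reached here. The simulated noise was independent and normal, with variances drawn from the prior fitted to these arrays. The false-call share was thus near the threshold by design and does not test the spread between animals. Python 3.11.15, pandas 2.3.3 and matplotlib 3.10.9 made tables and plots.

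The members, gene lists and settings were chosen with earlier results of these data known. Members given with values were the brightest and the 2 of smallest p in each family, the 10 of largest difference without overlap, all peroxiredoxins and glutaredoxins, and the core enzymes among the thioredoxins, peroxidases, dismutases, catalase and Gss. Non-members were Cul3, Txnrd1, Txnip, Srxn1, Gsr, Gclc, Gclm and up to 4 of each other list by smallest p. Other genes were named after their values were seen. Alternatives covered the normalization, the pseudocount, the filter, the moderation, the probe sets, the replicate number as a block and each array left out.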

Additional observations from a re-analysis of the deposited data

How the results depend on the processing

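The count of members past the threshold was 0 under every alternative run, with 1 to 4 members at an unadjusted p below 0.05 in the 14 alternatives fitted by gene, and 6 probe sets of 5 members with every probe set tested separately. Over all genes, 31 were called at the settings used, 81 with median centring, 0 without the filter on dim genes, 0 without the intensity trend (1247 and 923 at an unadjusted p below 0.05 in limma), and 40 to 97 with each array left out in turn. Tested separately, 51 of 21764 probe sets were called, a count of probe sets and not of genes. Fits without an array assume that the lone array varies like the other group. The replicate numbers share no stated origin, and the deviations of same-numbered arrays from their group means correlated at -0.016. With the replicate number as a block 45 genes and 0 members were called, the smallest adjusted p of the 3 leading members being 0.123 for Txn1. Leaving out KO replicate 1 put the median member difference at -0.017, and leaving out KO replicate 2 put it at 0.135, the ends of its range.

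Of 390 values for 28 named members, 366 kept their sign and their side of the threshold and 24 changed sign, spread over 15 members. With the mean of all probe sets the sign changed for Glrx (0.25), Glrx2 (0.097), Gss (-0.012), Prdx2 (-0.070), Sod1 (-0.099), Txndc17 (-0.080) and Cul3 (0.041). The Sod1 mean takes in a probe set below background on every array. With median centring the sign changed for Cat (-0.012), Gpx1 (-0.016) and Sod2 (-0.0010), where the median of all genes tested was -0.046. With each array left out in turn, differences ran from -0.11 to 0.21 for Cat, -0.19 to 0.070 for Glrx, -0.25 to 0.025 for Glrx2, -0.055 to 0.56 for Glrx3, -0.23 to 0.018 for Gpx4, -0.018 to 0.43 for Gss, -0.12 to 0.23 for Gstp1, -0.46 to 0.019 for Mgst3, -0.14 to 0.31 for Prdx2, -0.078 to 0.071 for Prdx3, -0.73 to 0.32 for Prdx4, -0.23 to 0.34 for Sod2 and -0.053 to 0.032 for Cul3. The cause of these changes was not tested. In simulated data with 200 altered genes 45% of 2-fold changes were called, a share that depends on that number. A member that missed the threshold may still differ.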
